A study of Mus musculus with 54 samples.

Results

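The comparison described here is a statistical interaction in adult mouse testis: whether a second exposed parent changed the transcriptome of second-generation (F2) males by a different amount when the first parent was itself exposed. Its members are the 12 testis libraries of a 2 by 2 cross, chosen by their labels from 54 libraries in the series, of which 27 are testis. In 3 both-parents libraries the father and the mother belonged to the dose 2 group. In 3 father-only libraries the father was from dose 2 and the mother a control, and in 3 mother-only libraries the mother was from dose 2 and the father a control. The 3 control-parents libraries came from a control father and a control mother. Dose 2 was drinking water with ibuprofen at 113 ng/L, its metabolite 2-hydroxyibuprofen at 225 ng/L, diclofenac at 112 ng/L and the synthetic oestrogen ethinyl-estradiol at 45 ng/L. Controls drank water with 0.001% ethanol. Exposure of the parents' generation (F1) began in the pregnant dams at 8.5 days post-coitum and went on in the offspring, the F2 males themselves are labelled as having no treatment, and males were sampled at 10 weeks. The strain is not given in the sources used here. Nothing in the labels says that libraries A, B and C of a cross came from different litters, and the p-values speak for the spread among these 12 libraries alone.

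The adult testis is mostly germ cells, which pass from spermatogonia through meiotic spermatocytes to spermatids, supported by Sertoli cells inside the tubules. Between the tubules, Leydig cells make testosterone under luteinising hormone and lie among macrophages, vessels and matrix. Ibuprofen and diclofenac block the cyclooxygenases that begin prostaglandin synthesis, and ethinyl-estradiol activates oestrogen receptors. An interaction compares 2 differences: the mother's effect with an exposed father (both-parents minus father-only) and the mother's effect with a control father (mother-only minus control-parents). It is equal to the same quantity computed for the father, and these 2 differences share no library. A positive log2 interaction means that the both-parents and control-parents groups together lay above the father-only and mother-only groups. It can arise from any 1 group that stands apart, as well as from a crossed order of all 4.

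Total counts per library were 33.6 to 41.5 M (median 38.9 M), with the 3 father-only libraries the shallowest (33.6 to 36.0 M), and 19025 genes passed the expression filter. Each library carried the abundant spermatid transcripts Prm1 (61322 to 106002 counts) and Tnp1 (35813 to 102302 counts). Control-parents libraries A and C lay at 34.4 and 46.7 on the first principal component of log2 CPM, against 11.3 for control-parents library B and -25.6 to 5.3 for the 9 libraries with an exposed parent. Both-parents library C lay at -55 on the second component, against -8.06 to 16.2 for the other 11, and had the highest Tnp1 and Prm1 counts. Of 14 epididymis markers 6 passed the filter, and their list summed to 153 to 167 CPM (counts scaled by library size) in both-parents, 155 to 168 in father-only, 161 to 185 in mother-only and 133 to 151 in control-parents libraries. Cst8 made up most of that sum (group means of 134 to 162 CPM). Ros1 on the same list had 0.0491, 0.998 and 0.865 CPM in mother-only libraries, against 2.35 to 6.2 CPM in the other 9, with an interaction of 2.47 ± 0.789 (adjusted p = 0.243).

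An interaction was found for 56 of 19025 genes (0.294%) by edgeR's quasi-likelihood test at an adjusted p under 0.05. It was positive for 27 (0.142%) and negative for 29 (0.152%), and 48 of the 56 were at least 2-fold in size. At an unadjusted p under 0.05 there were 1246 positive (6.55%) and 1393 negative genes (7.32%). The median interaction over all genes was -0.000352 on the log2 scale. Among the 56, both single-parent groups lay below control-parents in mean for 27 genes and above it for 28, with 1 gene split. This direction follows largely from how the genes were called and is given as a description. The count rested on single libraries: leaving out control-parents library A left 22 genes, father-only library A or B 26 or 24, and leaving out control-parents library B gave 482. Without both-parents library C, the library with the high spermatid counts, 133 genes were called. All 56 genes kept their sign in each of those fits, which reused all but 1 of the libraries that called them. Of the 27 genes named by rule, 20 lost their call without father-only library B, 19 without control-parents library A and 0 without control-parents library B, while 7 (Adgrg7, Klb, Klk1b24, Wdr49, Zfp981, Zfp991 and Znf41-ps) kept it whichever library was left out. Olfml3 lost its call in 11 of the 12 fits that left out a library, and Apol7e, Asap2, Mid1, Orc4 and Psmg4 in 10. Lrriq1 lost it in 9, and Cst9, Dhrs4 and Zfp493 in 8. The remaining named genes lost it in 3 to 7.

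The single effects behind the interaction were unequal in number. A dose 2 mother changed 30 genes (0.158%) when the father was exposed and 153 (0.804%) when the father was a control. A dose 2 father changed 22 genes (0.116%) when the mother was exposed and 308 (1.62%) when the mother was a control. The larger counts, 153 and 308, both used the same 3 control-parents libraries and depended on single ones. Without control-parents library A they were 21 and 22, without C 32 and 45, and without B 1208 and 2407. The smaller counts likewise shared the 3 both-parents libraries. The mother's 2 effects were compared directly with each other, as were the father's, since the libraries behind each such pair are separate. Of the 153 genes called for the mother with a control father, 88 (57.5%) had the same sign with an exposed father. Called in both were 4 (Mtarc2, Otof, Carmil1 and Adgrg7), 3 of them with the same sign. Of the 153, 29 had an interaction. The median effect of the 153, signed by the contrast that called them, was 0.0493 with an exposed father, against 0.715 with a control father. The second value is raised by its use in the calling. Of the 308 genes called for the father with a control mother, 168 (54.5%) kept their sign with an exposed mother. Called in both were 3 (Ercc1, Lyrm7os and Adgrg7), of which 1 kept its sign, while Ercc1 and Adgrg7 reversed. Of the 308, 35 had an interaction. The median effect of the 308 was 0.0203 with an exposed and 0.649 with a control mother. In the reverse selection, 11 of the mother's 30 genes called with an exposed father had the same sign with a control father and 17 had an interaction, and 8 of the father's 22 genes called with an exposed mother had the same sign with a control mother and 13 had an interaction. The interaction contains the effect that selected each set, so all these counts of interactions are raised by the selection and are descriptions. Among all tested genes 0.294% had an interaction. Across the 19025 genes the mother's effects with an exposed and a control father had a Pearson r of 0.0276 and a Spearman rho of -0.0207, and the father's an r of -0.0265 and a rho of 0.00688. Genes are not independent, and these values describe 12 libraries.

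**Figure D1:**
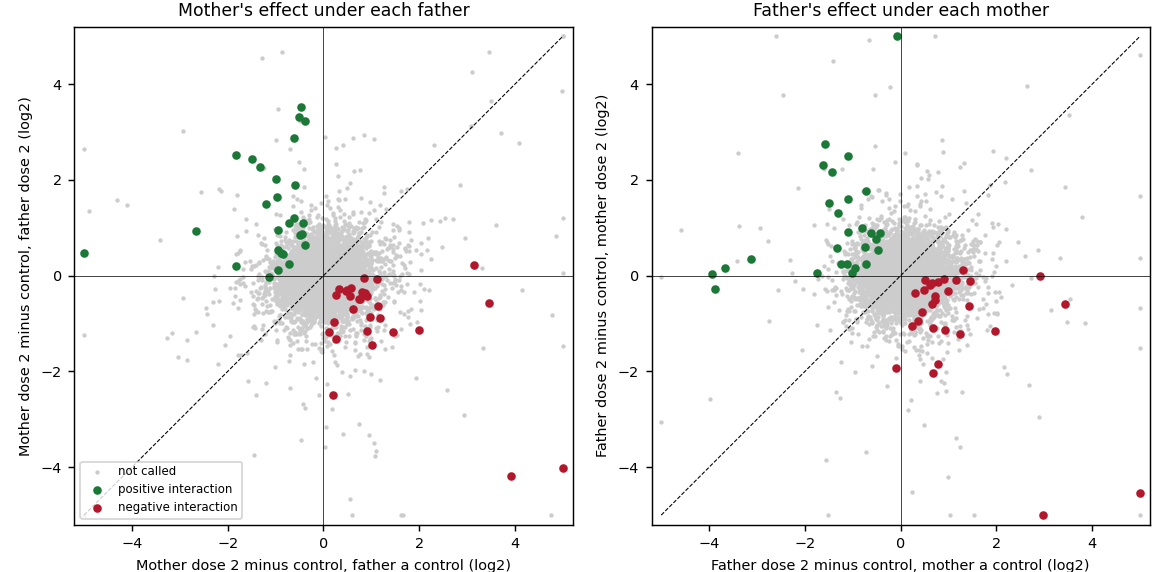
Log2 effect of a dose 2 mother (left) and of a dose 2 father (right) on each tested gene, with the other parent exposed (vertical axis) against the other parent a control (horizontal axis). Grey points are genes without a called interaction, coloured points the 56 called genes, the dashed line marks equal effects, and values beyond 5 are drawn at the edge. Over all 19025 tested genes, grey and coloured, the Pearson r was 0.0276 for the mother and -0.0265 for the father. Positive interactions lie above the line and negative ones below it.

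Of the called genes, 4 are kallikreins. Klk1b21, Klk1b22, Klk1b24 and Klk1b27 encode serine proteases of the mouse Klk1 family, and in mouse testis Klk1b21, Klk1b24 and Klk1b27 are products of Leydig cells. All 4 had a positive interaction: their levels were lower in both single-parent groups than in either other group. Their promoters are shown because these neighbouring genes moved together. Each is the 250 bases before the annotated start in RefSeq (GRCm38.p6), 5′ to 3′, with capitals on either strand for the core promoter motif TTTAAA and for the nuclear receptor half-site AGGTCA.
Klk1b21 promoter, chr7:44102042-44102291, + strand: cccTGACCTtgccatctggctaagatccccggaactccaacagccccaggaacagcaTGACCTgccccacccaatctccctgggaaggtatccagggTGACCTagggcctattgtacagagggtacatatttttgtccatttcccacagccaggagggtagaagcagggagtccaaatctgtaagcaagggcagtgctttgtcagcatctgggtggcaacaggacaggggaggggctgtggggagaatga
Klk1b22 promoter, chr7:44112423-44112672, + strand: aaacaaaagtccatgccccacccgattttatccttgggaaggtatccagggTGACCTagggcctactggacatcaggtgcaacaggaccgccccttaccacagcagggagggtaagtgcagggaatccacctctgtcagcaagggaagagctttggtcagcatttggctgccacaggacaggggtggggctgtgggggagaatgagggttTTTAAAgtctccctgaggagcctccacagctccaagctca
Klk1b24 promoter, chr7:44187986-44188235, + strand: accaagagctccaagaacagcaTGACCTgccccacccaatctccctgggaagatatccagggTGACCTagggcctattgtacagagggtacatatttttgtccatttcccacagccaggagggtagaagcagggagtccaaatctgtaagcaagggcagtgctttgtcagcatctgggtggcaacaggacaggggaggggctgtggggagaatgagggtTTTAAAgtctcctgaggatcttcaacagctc
Klk1b27 promoter, chr7:44052040-44052289, + strand: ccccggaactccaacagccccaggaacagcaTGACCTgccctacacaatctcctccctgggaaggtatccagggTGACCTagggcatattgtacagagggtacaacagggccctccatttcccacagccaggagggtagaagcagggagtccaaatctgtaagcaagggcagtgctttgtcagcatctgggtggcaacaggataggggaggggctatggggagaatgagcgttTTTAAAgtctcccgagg
The promoters of Klk1b21 and Klk1b24 were 97.7% identical over 215 aligned bases, and those of Klk1b21 and Klk1b22 81.3% over 198. AGGTCA was found in 4 of the 4 and in 6 of the 7 other tested Klk1-family promoters, against 13.8% of 27025 promoters of the same length. TTTAAA was found in 3 of the 4 and in 6 of the 7, against 12.1%. Both motifs thus also occur in family members without a called interaction. TATAAA was found in 0 of the 11, against 13.0% of all promoters. The androgen receptor half-site AGAACA was found in 1 of the 4 and 1 of the 7, against 16.2%. No motif overlapped another in the printed windows.

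Klk1b24 had 10.9, 14.3 and 19.1 CPM in both-parents testes, 3.7, 5.56 and 4.86 CPM in father-only testes, 4.07, 6.54 and 7.29 CPM in mother-only testes and 12.3, 10.0 and 12.7 CPM in control-parents testes. The 6 single-parent libraries all lay below the other 6. Its interaction was 2.61 ± 0.338 (log2 ± SE, n = 3 libraries per group, adjusted p = 0.00705). A dose 2 mother raised Klk1b24 by 1.64 ± 0.242 with an exposed father (adjusted p = 0.0164), and her effect with a control father was -0.97 ± 0.237 (adjusted p = 0.0829). Klk1b24 fell in father-only relative to control-parents testes (-1.31 ± 0.242, adjusted p = 0.0248).

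Klk1b27 had 13.6, 16.0 and 24.2 CPM in both-parents, 3.52, 4.5 and 5.27 CPM in father-only, 3.51, 7.78 and 7.56 CPM in mother-only and 14.1, 10.3 and 13.1 CPM in control-parents libraries, an interaction of 3.0 ± 0.424 (adjusted p = 0.0148). Klk1b21 averaged 17.9 ± 5.06, 6.29 ± 1.17, 5.88 ± 2.25 and 13.6 ± 1.46 CPM in the same order of groups (mean ± SD), an interaction of 2.71 ± 0.393 (adjusted p = 0.0148). Klk1b22, at a low level, averaged 3.39 ± 1.68, 0.702 ± 0.073, 0.758 ± 0.297 and 1.90 ± 0.739 CPM, an interaction of 3.59 ± 0.572 (adjusted p = 0.0154). In all 3 the single-parent libraries lay below the other 6 without overlap, a pattern met by 130 of all tested genes in either direction (0.683%). The family has close copies whose reads the counting could have split or shared, so these 4 values may not be independent. The 7 other tested family members had interactions of -0.0289 (Klk1b9) to 0.741 (Klk1) and none passed the threshold. Klk1b8, the most abundant of them, averaged 54.0 CPM in both-parents, 42.3 in father-only, 51.4 in mother-only and 39.8 in control-parents testes. Klk1, Klk1b8 and Klk1b9 were picked after their values were seen.

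**Figure D2:**
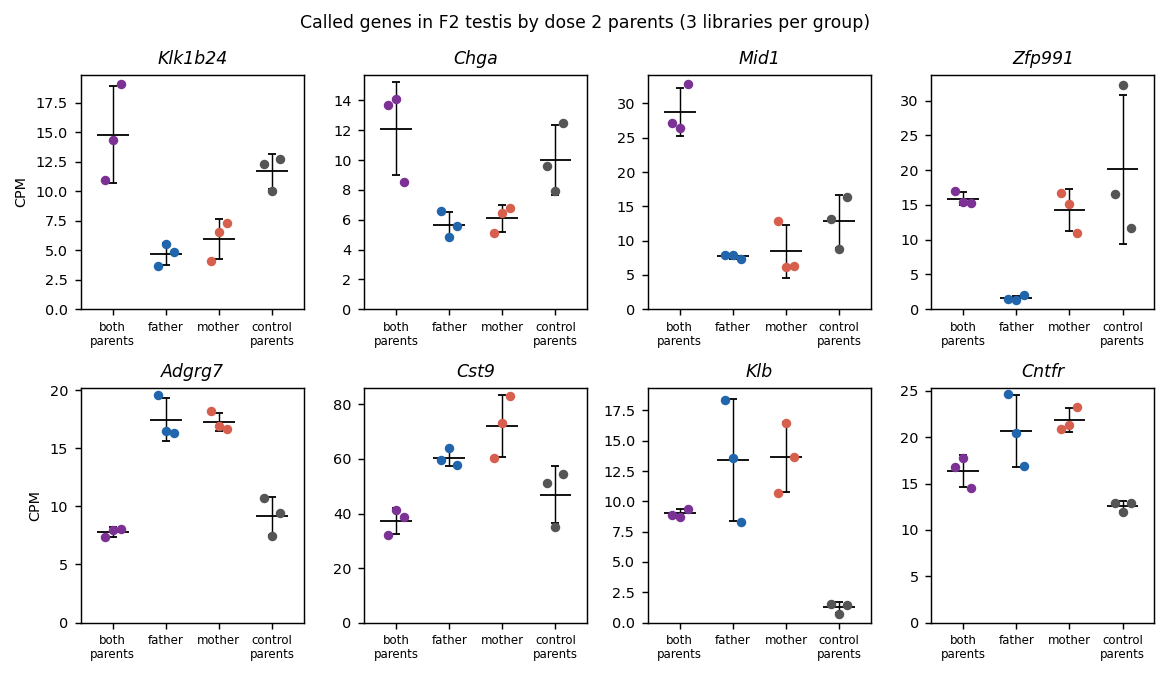
CPM of 8 called genes in each of the 12 libraries, with points for libraries A, B and C from left to right within a group, a line for the mean and a bar for 1 SD (n = 3); each vertical axis starts at 0. In Klk1b24 and Chga the single-parent groups are the low ones, in Adgrg7 and Cst9 the high ones, while Mid1, Zfp991 and Klb each have 1 group apart.

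The next 4 named genes shared the crossed order with low single-parent groups or came close to it. Chga encodes chromogranin A, a protein of hormone-storing granules in endocrine cells. It had 13.7, 14.1 and 8.52 CPM in both-parents, 6.57, 4.87 and 5.6 CPM in father-only, 5.08, 6.44 and 6.77 CPM in mother-only and 9.6, 7.91 and 12.5 CPM in control-parents libraries. The interaction was 1.81 ± 0.298 (adjusted p = 0.0175), and the single-parent libraries did not overlap the other 6. Pdpn, encoding the membrane glycoprotein podoplanin, averaged 2.44 ± 0.374 CPM in both-parents, 1.25 ± 0.393 in father-only, 1.63 ± 0.35 in mother-only and 3.16 ± 0.297 in control-parents testes, an interaction of 1.92 ± 0.326 (adjusted p = 0.0198). Zbtb11os1, an opposite-strand transcript whose reads may mix with those of its neighbour, had an interaction of 1.52 ± 0.263 (adjusted p = 0.0235), also without overlap. Asap2, an activator of Arf GTPases, had the largest positive interaction of a named gene, 4.34 ± 0.668 (adjusted p = 0.0265), but this call was lost in 10 of the 12 fits that left out a library (adjusted p up to 0.11). It had 16.4, 16.6 and 12.5 CPM in both-parents, 2.49, 2.88 and 2.57 CPM in father-only, 2.26, 2.18 and 2.32 CPM in mother-only and 6.69, 14.5 and 2.66 CPM in control-parents libraries. Control-parents library C thus lay near the single-parent libraries, and libraries A and B did not. Ercc1 and Nmnat3, outside the naming rule and picked after their values were seen, belong to the same crossed pattern. Ercc1, a subunit of a DNA repair nuclease, averaged 17.7 ± 0.36 CPM in both-parents, 11.4 ± 0.906 in father-only, 12.1 ± 0.352 in mother-only and 15.8 ± 0.721 in control-parents testes, an interaction of 1.01 ± 0.129 (adjusted p = 0.00452). Nmnat3, an enzyme of NAD synthesis, had an interaction of 1.35 ± 0.219 (adjusted p = 0.0183).

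The opposite cross, with both single-parent groups high, was led by Adgrg7, an adhesion-type G protein-coupled receptor. Adgrg7 had 7.35, 7.98 and 8.06 CPM in both-parents, 19.6, 16.5 and 16.3 CPM in father-only, 18.2, 16.9 and 16.7 CPM in mother-only and 10.7, 7.47 and 9.41 CPM in control-parents libraries. The interaction was -2.07 ± 0.182 (adjusted p = 0.000276), and every single-parent library exceeded the other 6. Adgrg7 passed the threshold in each of the 4 single effects: an exposed mother lowered it with an exposed father (-1.17 ± 0.129, adjusted p = 0.00208) and raised it with a control father (0.91 ± 0.128, adjusted p = 0.0057). For an exposed father the values were -1.15 ± 0.129 with an exposed mother (adjusted p = 0.00196) and 0.93 ± 0.128 with a control mother (adjusted p = 0.00483). Outside the cross Adgrg7 had 12.4, 15.2 and 7.68 CPM in the F1 control libraries. These spanned 0.98 on the log2 scale, against 1.16 among the 4 group means of the cross.

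Cst9, a member of the cystatin family of cysteine protease inhibitors, had 32.1, 41.2 and 38.6 CPM in both-parents, 59.6, 64.0 and 57.9 CPM in father-only, 60.2, 73.1 and 83.0 CPM in mother-only and 51.1, 35 and 54.5 CPM in control-parents libraries. Its interaction was -1.32 ± 0.223 (adjusted p = 0.0235), again without overlap. Slc1a2, a glutamate transporter, averaged 39.3 ± 1.96 CPM in both-parents, 49.2 ± 6.33 in father-only, 44.7 ± 1.98 in mother-only and 32.3 ± 2.76 in control-parents testes, an interaction of -0.80 ± 0.139 (adjusted p = 0.0235). Orc4, a subunit of the complex that marks origins of DNA replication, averaged 18.7 ± 1.02, 22.9 ± 2.38, 22.9 ± 1.65 and 16.3 ± 0.794 CPM in that order, an interaction of -0.78 ± 0.139 (adjusted p = 0.0253). Both had 6 single-parent libraries above the rest. In all, 24 of the 56 called genes had such a crossed order without overlap, 11 with the single-parent libraries low and 13 with them high. Among all 19025 tested genes 130 (0.683%) had it, 58 with the single-parent libraries low and 72 with them high. This pattern was defined after the values were seen, and since crossed genes are those the interaction detects most easily, the share is a description. Lrriq1, with an IQ motif and leucine-rich repeats, had the smallest named interaction, -0.59 ± 0.115 (adjusted p = 0.0478), with group means of 61.2, 74.2, 65.0 and 52.1 CPM. Zfp493, encoding a zinc-finger protein with close relatives, averaged 0.862 ± 0.533, 1.86 ± 0.644, 1.89 ± 0.413 and 0.474 ± 0.0871 CPM, an interaction of -3.11 ± 0.548 (adjusted p = 0.0235). Apol7e, an apolipoprotein L family member with close copies, lay near 1 CPM or below in nearly every library and had an interaction of -2.62 ± 0.498 (adjusted p = 0.0423).

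By a rule on group means, 1 group stood apart in 26 called genes, 4 of which also had the crossed order, and in all 26 the 3 libraries of that group lay outside the range of the other 9. Among all tested genes 8.82% met both conditions, a group apart by that rule and its 3 libraries outside the range of the other 9. Control-parents stood apart in 13 of the 56, 23.2%, against 26.9% of all tested genes with that pattern of means. Father-only stood apart in 6 (10.7% against 12.3%), both-parents in 4 (7.14% against 11.2%) and mother-only in 3 (5.36% against 6.94%). These shares of means lie near the background. With the libraries also required to lie apart, in addition to the rule on means, the shares of all tested genes fell. They were 5.31% for control-parents, 1.72% for father-only, 1.12% for both-parents and 0.668% for mother-only, below those of the called genes in each. The call itself selects genes with groups well apart, and the difference is a description.

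Klb encodes β-Klotho, the co-receptor that lets FGF21 and FGF15 signal through FGF receptors. It had 8.9, 8.72 and 9.41 CPM in both-parents, 18.4, 13.6 and 8.33 CPM in father-only and 10.7, 16.5 and 13.7 CPM in mother-only libraries, against 1.51, 0.744 and 1.48 CPM in control-parents libraries. The control-parents libraries were the low ones. The interaction was -4.03 ± 0.416 (adjusted p = 0.00259). A dose 2 mother raised Klb by 3.45 ± 0.318 with a control father (adjusted p = 0.000593), and her effect with an exposed father was -0.58 ± 0.27 (adjusted p = 0.55). A dose 2 father raised it by 3.43 ± 0.318 with a control mother (adjusted p = 0.00125), while with an exposed mother his effect was -0.60 ± 0.269 (adjusted p = 0.774). Klb was the only 1 of 14 tested genes on a list of FGF ligands, receptors and Klotho genes to pass the threshold. That list had a median interaction of 0.121.

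Other genes with control-parents apart included Amotl2, a scaffold of cell junctions, and Dhrs4, a carbonyl reductase. Amotl2 had 7.25, 6.82 and 6.88 CPM in both-parents, 5.15, 4.09 and 5.3 CPM in father-only, 7.49, 5.81 and 4.52 CPM in mother-only and 11.9, 9.9 and 12.5 CPM in control-parents libraries. Its interaction was 1.47 ± 0.24 (adjusted p = 0.0154), and it fell in both single-parent groups relative to control-parents (-0.95 ± 0.168 for the mother, adjusted p = 0.0244, and -1.24 ± 0.171 for the father, adjusted p = 0.00478). Dhrs4 averaged 8.81 ± 2.02, 6.34 ± 1.38, 7.47 ± 0.979 and 13.7 ± 1.47 CPM in the same order, an interaction of 1.35 ± 0.258 (adjusted p = 0.0434). Htra3, Doc2b and Bhmt, outside the naming rule, were the other 3 genes with high control-parents libraries, with interactions of 1.12, 1.08 and 0.97. They encode a secreted serine protease, a calcium sensor of vesicle fusion and betaine-homocysteine methyltransferase.

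Cntfr, the receptor for ciliary neurotrophic factor, had no group apart by the rule. Cntfr averaged 16.4 ± 1.7 CPM in both-parents, 20.7 ± 3.9 in father-only, 21.8 ± 1.3 in mother-only and 12.5 ± 0.588 in control-parents testes, an interaction of -1.14 ± 0.18 (adjusted p = 0.0148). Olfml3, a secreted olfactomedin-like protein, likewise had none: its 3 mother-only libraries, at 2.63 to 2.87 CPM, were lowest, and the control-parents libraries ranged from 5.48 to 13.2 CPM. Its interaction was 2.02 ± 0.376 (adjusted p = 0.0435).

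A father-only group that stood apart marked a set of neighbouring zinc-finger genes, named because Zfp991, Zfp981 and the pseudogene Znf41-ps lie in 1 stretch of the genome. Zfp991 had 17.0, 15.4 and 15.3 CPM in both-parents, 1.45, 1.3 and 1.99 CPM in father-only, 16.7, 15.2 and 10.9 CPM in mother-only and 16.5, 32.2 and 11.7 CPM in control-parents libraries. Only the father-only libraries were low. The interaction was 3.82 ± 0.479 (adjusted p = 0.00892), and it did not pass when the other 6 F2 libraries (adjusted p = 0.116) or all 15 other testis libraries (adjusted p = 0.153) joined the fit. A dose 2 mother raised Zfp991 by 3.32 ± 0.368 with an exposed father (adjusted p = 0.00439), with an effect of -0.50 ± 0.308 with a control father (adjusted p = 0.451). Znf41-ps averaged 42.3 ± 3.3, 3.69 ± 1.2, 41.2 ± 5.5 and 57.1 ± 26.6 CPM, an interaction of 3.98 ± 0.46 (adjusted p = 0.00847). Zfp981 averaged 6.86 ± 1.14, 0.737 ± 0.231, 8.37 ± 1.26 and 10.9 ± 5.3 CPM, an interaction of 3.6 ± 0.474 (adjusted p = 0.0089). Both calls were likewise lost in those larger fits. Zinc-finger genes of this family have close copies, so reads may be shared among them.

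The stretch was found by gene order: called genes at most 10 places apart in the order of tested genes were joined. This gave 5 stretches holding 18 of the 56 called genes. The longest held 8 called genes among 28 tested genes, 7 of them positive, from Pdpn to Zfp991, and 16 of the 28 were positive. The kallikrein stretch held 5 tested genes, of which all but Klk1b16 passed the threshold. The remaining 3 stretches held 2 called genes each, among them Zbtb11os1 with Adgrg7 and Gm6093 with Psmg4. Zbtb11os1 and Adgrg7 had opposite signs. The gene order is that of GRCm38.p6 while the counts were made on mm39, so only the order is used.

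Both-parents stood apart for Mid1, Psmg4 and Wdr49 among named genes. Mid1 encodes a microtubule-associated ubiquitin ligase. It had 27.1, 26.4 and 32.8 CPM in both-parents libraries, against 7.94, 7.95 and 7.26 CPM in father-only, 12.9, 6.12 and 6.33 CPM in mother-only and 13.2, 8.78 and 16.4 CPM in control-parents libraries. The interaction was 2.49 ± 0.399 (adjusted p = 0.0235). A second exposed parent raised Mid1, by 1.90 ± 0.285 when it was the mother (adjusted p = 0.0259) and 1.77 ± 0.282 when it was the father (adjusted p = 0.0476). Wdr49, a WD-repeat gene, had 0.558, 0.494 and 0.803 CPM in both-parents, 4.15, 3.78 and 2.46 CPM in father-only, 2.97, 2.42 and 2.13 CPM in mother-only and 2.51, 1.61 and 2.38 CPM in control-parents libraries. Within the cross Wdr49 was low in both-parents libraries alone, with an interaction of -2.70 ± 0.368 (adjusted p = 0.00705). Outside the cross it had 1.28, 0.772 and 0.743 CPM in F1 dose 2 and 1.53, 2.51 and 0.958 CPM in F1 control libraries. Levels were 2.76 CPM or above in F1 dose 1 and in F2 with a dose 1 parent. Psmg4, a chaperone of proteasome assembly, averaged 2.57 ± 0.578 CPM in both-parents, 5.02 ± 0.513 in father-only, 4.33 ± 0.221 in mother-only and 3.69 ± 0.201 in control-parents testes, an interaction of -1.20 ± 0.226 (adjusted p = 0.0408). The smallest p for the interaction after Adgrg7 belonged to 5830417I10Rik, an RNA without a described function here, which the naming rule leaves out. It averaged 32.6 ± 2.8 CPM in both-parents, 73.6 ± 2.54 in father-only, 67.7 ± 5.69 in mother-only and 62.2 ± 2.11 in control-parents testes (interaction -1.30 ± 0.118, adjusted p = 0.000276). Outside the cross 5830417I10Rik had 47.8, 64.4 and 6.53 CPM in F1 control libraries. In F2 with a dose 1 father it had 30.6, 34.5 and 31.6 CPM, near the both-parents level. Its call was lost in 1 of the 20 alternatives (adjusted p = 0.309).

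Mother-only stood apart for Fhitos, C1qtnf2 and Gm30726. Fhitos, an opposite-strand transcript of Fhit with the same limit on strand, had 1.04, 1.21 and 1.52 CPM in both-parents, 2.81, 2.1 and 1.91 CPM in father-only, 5.52, 4.44 and 4.35 CPM in mother-only and 2.8, 2.6 and 1.86 CPM in control-parents libraries. The mother-only libraries were highest, and the interaction was -1.84 ± 0.304 (adjusted p = 0.0173). C1qtnf2, a secreted C1q-related protein outside the naming rule, averaged 2.97 ± 0.791, 1.56 ± 0.465, 0.524 ± 0.203 and 3.33 ± 0.702 CPM in that order of groups, an interaction of 3.59 ± 0.435 (adjusted p = 0.00294). Its low level also occurred outside the cross. C1qtnf2 had 0.494, 0.469 and 0.743 CPM in F1 dose 2 and 0.707, 0.652 and 0.629 CPM in F2 with a dose 1 mother. F1 control libraries had 3.82, 4.87 and 4.25 CPM. Gm30726, a predicted gene named after its values were seen, had 0 counts in the 3 mother-only libraries. Against a floor of 3 counts over the mother-only group, which is 0.0251 CPM, it was at least 106-fold higher in both-parents testes. The same fold was at least 76.1 in father-only and 80.1 in control-parents testes. Low or absent Gm30726 was not limited to mother-only libraries. Outside the cross it had 0, 0.634 and 2.06 CPM in F1 dose 2 and 0.283, 1.22 and 0 CPM in F2 with a dose 1 mother. F1 control library C had 0.0668 CPM, while F1 control libraries A and B were above 1 CPM.

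**Figure D3:**
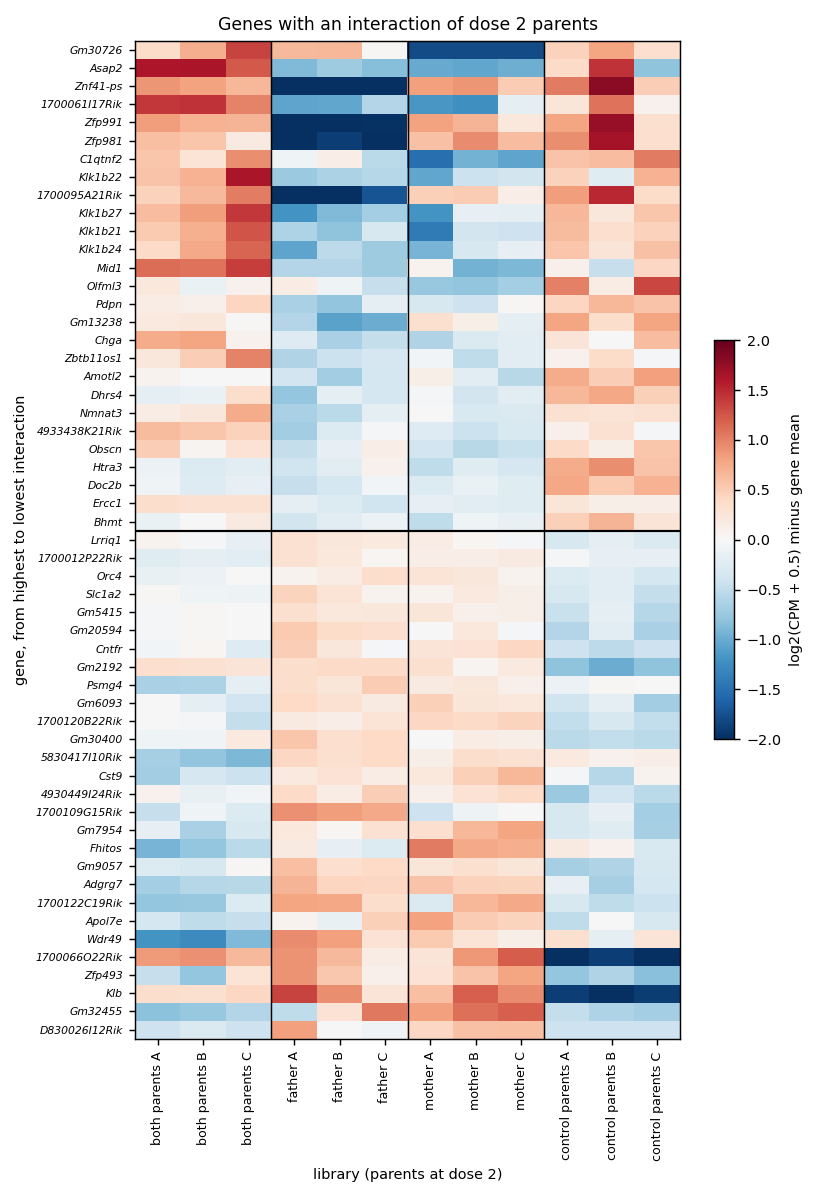
Of the 56 genes with an interaction, 55 (rows, highest to lowest interaction) in the 12 libraries (columns, by group), coloured by log2(CPM + 0.5) minus the gene's mean and limited to 2 either way. The horizontal line divides 27 positive from 28 negative genes, and blocks of 1 colour in a single group mark genes such as Znf41-ps (father-only) and Klb (control-parents).

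Cell types and pathways were followed with 27 gene lists, chosen with earlier results of these data known. List members that passed the threshold were Klk1b24, Klk1b21 and Klb, with 0 members past it in each of the other 25 lists. The Leydig cell list had the highest median interaction, 0.368 over 19 tested genes, with 17 positive, 4 positive and 0 negative at an unadjusted p under 0.05, and 2 called, the kallikreins. Without these the other 17 had a median of 0.344, 15 positive and 2 at an unadjusted p under 0.05. Macrophage (0.314, 20 genes), extracellular matrix (0.313, 30 genes), peritubular (0.298, 14 genes) and endothelial lists (0.28, 18 genes) came next, none of them a germ cell list. Of the 30 matrix genes 24 were positive and 8 had an unadjusted p under 0.05. The lowest median was that of meiotic spermatocyte genes, -0.15 over 29 genes, 21 of them negative and 8 of these at an unadjusted p under 0.05. The median of all genes lay near 0, with 6.55% and 7.32% past that unadjusted threshold in each direction.

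**Figure D4:**
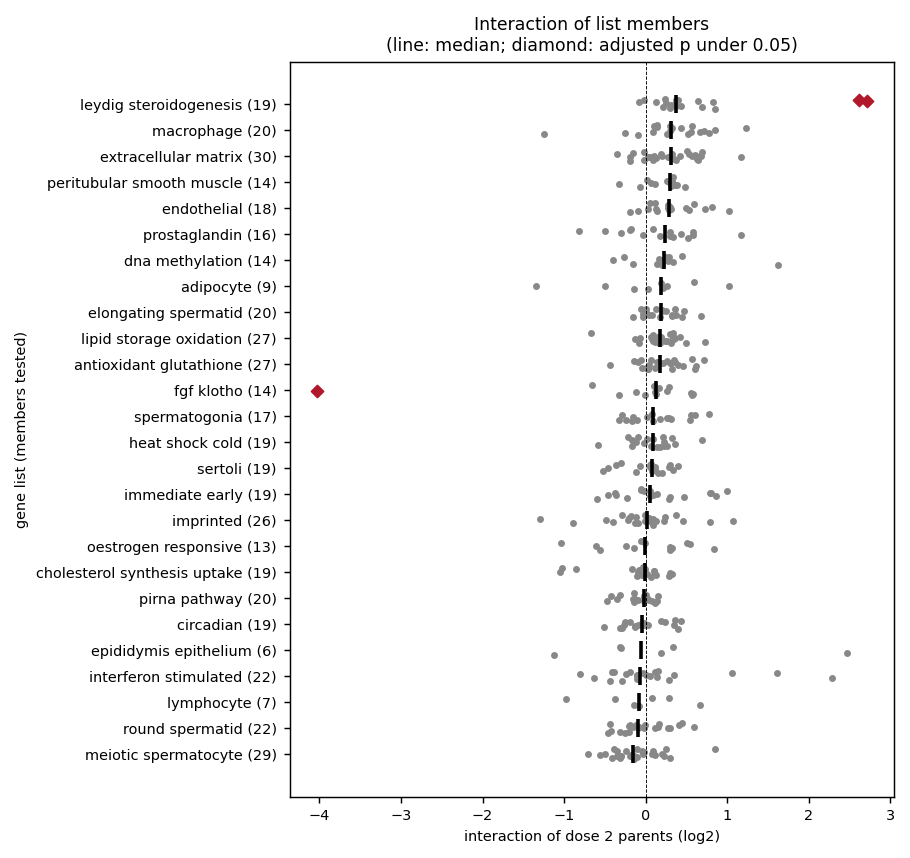
Log2 interaction of each tested member (points) of 26 gene lists with at least 5 tested members, ordered by the list's median (black line), with called genes as red diamonds. Lists of Leydig, macrophage, matrix, peritubular and endothelial genes lie right of 0 and spermatocyte genes left of it, within about 1 log2 unit for most members.

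Leydig genes summed to 1530, 1550 and 1480 CPM in both-parents, 1700, 1770 and 1730 CPM in father-only and 1410, 1810 and 1740 CPM in mother-only libraries, against 2370, 2410 and 2320 CPM in control-parents libraries. The control-parents libraries were above all others, whereas Klk1b21, Klk1b22, Klk1b24 and Klk1b27 were higher in mean in both-parents than in control-parents testes. In bulk tissue fewer cells of a type and less RNA per cell cannot be told apart, and the part of cell makeup in the interaction was not tested. Cyp17a1, the steroidogenic 17α-hydroxylase, had 446, 454 and 426 CPM in both-parents, 450, 498 and 504 CPM in father-only, 404, 525 and 508 CPM in mother-only and 668, 730 and 639 CPM in control-parents libraries. Its interaction of 0.37 ± 0.131 did not pass (adjusted p = 0.254). Vcam1, an adhesion molecule on the same list, had 0.64 ± 0.23 (adjusted p = 0.268). Meiotic genes Tex15 and Sycp1, which act in recombination and the synaptonemal complex, had -0.70 ± 0.203 (adjusted p = 0.205) and -0.56 ± 0.165 (adjusted p = 0.208).

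Basement membrane collagens were nearest to the threshold among matrix genes. Col4a2 had 28.0, 26.1 and 23.3 CPM in both-parents, 17.8, 18.1 and 24.3 CPM in father-only, 22.3, 21.9 and 23.2 CPM in mother-only and 26.5, 26.2 and 28.7 CPM in control-parents libraries, an interaction of 0.64 ± 0.163 (adjusted p = 0.148). Father-only library C overlapped the both-parents group. Col4a1 had an interaction of 0.65 ± 0.184 (adjusted p = 0.195). Acta2, smooth muscle actin of peritubular cells, had 0.36 ± 0.161 (adjusted p = 0.342), and Cx3cr1, a macrophage chemokine receptor, 0.84 ± 0.267 (adjusted p = 0.221). Hmgcs1, an early enzyme of cholesterol synthesis, had -1.05 ± 0.35 (adjusted p = 0.255).

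Of the list members, 3 lay just outside the threshold. Gpx1, a glutathione peroxidase, had 19.5, 18.2 and 22.6 CPM in both-parents, 17.0, 17.6 and 20.2 CPM in father-only, 17.6, 20.3 and 20.5 CPM in mother-only and 30.7, 27.5 and 28.8 CPM in control-parents libraries, with an interaction of 0.71 ± 0.15 (adjusted p = 0.0792). Its control-parents libraries were above all others. Tet1, an enzyme that oxidises methylated cytosine, had 1.62 ± 0.341 (adjusted p = 0.0793). Hsf2, a heat shock transcription factor active in spermatogenesis, had -0.59 ± 0.124 (adjusted p = 0.0819). Lists of cyclooxygenase-pathway genes (16 tested, median 0.235), oestrogen-responsive genes (13 tested, -0.013), imprinted genes (26 tested, 0.016) and piRNA pathway genes (20 tested, -0.022) held 0 genes past the threshold. At an unadjusted p under 0.05 these held 1 positive and 1 negative, 3 and 1, 1 and 2, and 0 and 3 genes.

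The 56 genes were then examined in the 15 testis libraries outside the cross, which played no part in calling them. In the 3 F1 control libraries, 18 of the 56 (32.1%) differed by at least 2-fold between the lowest and the highest library, against 7.17% of all tested genes and 2.58% of those with a mean level between the quartiles of the called genes. The same share was 50% against 9.99% in F1 dose 1, 19.6% against 6.6% in F1 dose 2, 8.93% against 5.8% in F2 with a dose 1 father and 32.1% against 7.05% in F2 with a dose 1 mother. In each of the 5 groups the share was higher among the called genes. For 9 of the 56 the F1 control libraries alone spanned at least the range of the 4 group means of the cross (16.1%, against 45.1% of all tested genes, whose group means lie closer together).

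Klb had 5.97, 0.953 and 17.1 CPM in the F1 control libraries, which reach both the low level of control-parents and the high level of the other groups. Klk1b24 had 18.4, 25.3 and 7.22 CPM there, and 14.7, 3.68 and 17.3 CPM in F1 dose 1. Zfp991 had 13.1, 15 and 17 CPM in F1 control libraries but 16.2, 1.43 and 2.16 CPM in F1 dose 1, 1.74, 5.9 and 11.9 CPM in F1 dose 2 and 1.98, 12.6 and 0.684 CPM in F2 with a dose 1 mother. Libraries near the low level of the father-only group thus occurred in 3 other groups, in 1 of them with a control father. Asap2 had 9.71, 12.8 and 1.43 CPM in F1 control libraries. Mid1 stayed at 6.7 to 7.73 CPM in F1 control libraries, though control-parents libraries of the cross had 13.2, 8.78 and 16.4 CPM. It reached 21.8, 24.5 and 22.2 CPM in F2 testes of dose 1 fathers. The labels do not say which libraries share a litter.

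**Figure D5:**
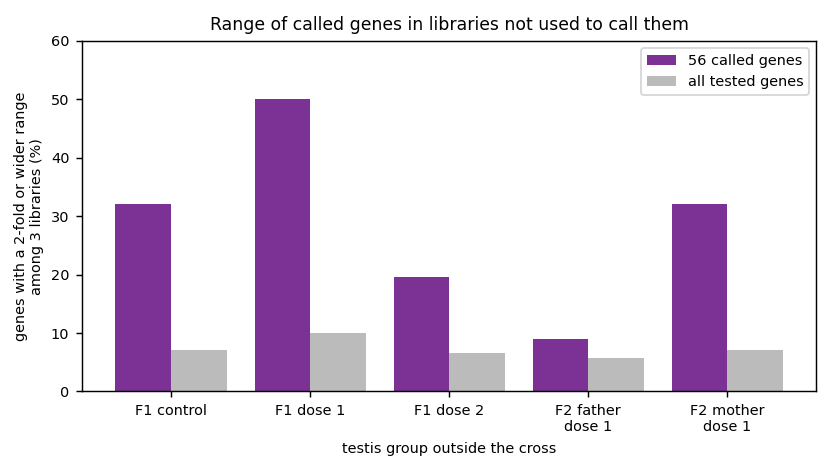
Share of genes (%) whose highest and lowest library differ at least 2-fold among the 3 libraries of each testis group outside the cross, for the 56 called genes (purple) and all 19025 tested genes (grey). The called genes have the higher share in each group, from 8.93% in F2 with a dose 1 father to 50% in F1 dose 1.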

How the data were processed

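Polyadenylated RNA of adult testis was sequenced after TRIZOL extraction with a stranded ligation kit, per the labels' protocols. Per the submitters' processing notes, the build was mm39 and the tools included TopHat2 2.1.1 and Bowtie2 2.4.5, with featureCounts 2.0.3, SAMtools 1.13, FastQC 1.19, bcl2fastq 2.20 and DESeq2 1.32.0 listed too. Neither the annotation nor the strand setting is given in the sources used, and values of antisense or overlapping genes are uncertain. The authors deposited raw whole-number counts per gene, not normalised.

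Of 26264 entries, 133 without a gene ID (0.319 to 0.352% of counts) were left out. Genes passed edgeR's expression filter (minimum count 10), were scaled by TMM and tested on the 12 libraries in 1 model of 4 group means with edgeR 4.0.16 (robust quasi-likelihood, R 4.3.3). P-values were adjusted by Benjamini-Hochberg over 19025 genes with a threshold of 0.05. Log2 CPM used a prior count of 2. Libraries of a group differed by more than sampling noise (chi-square). The steps were tested on simulated counts.

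Named genes passed the threshold, had at least 1 CPM in their highest group and no predicted name, up to 15 each way; 1 gene the rule selects is not reported here. At most 4 members per list were named, those with the smallest p. The members and lists were chosen with earlier results of these data known. Promoters came from a RefSeq table. Alternatives were DESeq2 1.42.0, RLE factors, no filter, the letter as a block, 18 or 27 libraries, no robust estimates, a linear scale, each library left out, and, added after the data were seen, entries without an ID kept.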

Additional observations from a re-analysis of the deposited data

Results flagged for a closer look

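The 56 genes with an interaction are flagged because a test of the difference between 2 effects, the mother's with an exposed father and the mother's with a control father, passed the threshold for each. Among the named genes the positive log2 interactions were 4.34 for Asap2, 3.98 for Znf41-ps, 3.82 for Zfp991, 3.6 for Zfp981, 3.59 for Klk1b22, 3.0 for Klk1b27, 2.71 for Klk1b21, 2.61 for Klk1b24, 2.49 for Mid1, 2.02 for Olfml3, 1.92 for Pdpn, 1.81 for Chga, 1.52 for Zbtb11os1, 1.47 for Amotl2 and 1.35 for Dhrs4. In these 15 genes the effect of an exposed mother was higher with an exposed father than with a control father.

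The negative log2 interactions were -4.03 for Klb, -3.11 for Zfp493, -2.70 for Wdr49, -2.62 for Apol7e, -2.07 for Adgrg7, -1.84 for Fhitos, -1.32 for Cst9, -1.20 for Psmg4, -1.14 for Cntfr, -0.80 for Slc1a2, -0.78 for Orc4 and -0.59 for Lrriq1. In these 12 the effect of an exposed mother was lower with an exposed father.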

How the results depend on the processing

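All 56 genes kept the sign of their interaction in the 20 alternatives, and 7 (1700061I17Rik, 1700120B22Rik, Adgrg7, Ercc1, Gm2192, Gm7954 and Wdr49) passed the threshold in every one. Each alternative reused all or all but 1 of the 12 libraries that called the genes. The kept signs were thus largely fixed by the calling and are a description. On a linear CPM scale all named genes also kept their sign. The count of 56 moved by over 1.5 times with DESeq2 (288), the replicate letter as a block (86) and all 18 F2 libraries (101), and ranged from 22 without control-parents library A to 482 without control-parents library B. With all 27 testis libraries it was 58, but only 24 of the 56 were among them, and Klb (adjusted p = 0.131) and Klk1b24 (adjusted p = 0.107) were lost in that fit alone. Zfp991, Zfp981 and Znf41-ps lost their calls with 18 libraries (adjusted p = 0.116 to 0.132) and with 27 (0.153 to 0.176). Of 18 correlations between libraries of the same letter, 1 was over 0.1 (range -0.0494 to 0.125), and most were positive. These low values do not settle whether the letters mark a pairing, and the replicate block is given as a count only. The mother's 30 genes with an exposed father became 152 with DESeq2 and 12 with 27 libraries, and 9 to 65 with a library left out. Her 153 with a control father became 688 with DESeq2, 329 with 18 libraries, 275 with 27 libraries and 21 to 1208 with a library left out. The father's 22 with an exposed mother became 135 with DESeq2, 11 with 27 libraries and 5 to 69 with a library left out. His 308 with a control mother became 1351 with DESeq2, 735 with the replicate block, 1019 with 18 libraries, 1143 with 27 libraries and 22 to 2407 with a library left out. The cause was not tested. The father-only libraries were the shallowest (33.6 to 36.0 M), and 3 libraries per group limit the precision.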
